A study of Mus musculus with 15 samples.

Results

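The regions described here were found in WT mouse brain with 2 different sets of capture oligos. They are the autosomal peaks of the second *116HG* ChIRP-seq library of WT brain (replicate 2) that lay within 10 kb of a peak obtained from WT brain with non-specific control (NSC) oligos. By this rule 832 of the 9221 autosomal replicate 2 peaks were taken (9.02%, exact 95% interval 8.45 to 9.63). The 5 deposited peak lists hold 97524 peaks in all. The 832 members were chosen by their measured positions in these 2 lists, so their closeness to NSC peaks is a description and was not tested. *116HG* ChIRP and NSC ChIRP were performed on brain of adult C57BL/6J mice (wild type) and of adult *Snord116del* (+/-) mice of strain B6(Cg)-Snord116tm1.1Uta/J, which lack the *Snord116* copies on the paternal chromosome and keep them on the maternal one. Each list came from 1 library, replicates 1 and 2 of WT *116HG* ChIRP being 2 libraries, and all were called against the same WT input library. RNA-seq was performed on cortex of 3 WT and 2 *Snord116del* mice at Zt +6 and of 2 and 2 at Zt +16 (zeitgeber time, hours after lights on), and the table gives 1 FPKM value for each group of mice, with no spread between mice.

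*116HG* is the spliced host RNA of the *Snord116* small nucleolar RNAs in the Prader-Willi locus, expressed from the paternal chromosome in neurons, where it stays near its own gene as an RNA cloud. ChIRP (chromatin isolation by RNA purification) captures an RNA from cross-linked chromatin with biotinylated antisense oligos and sequences the DNA that comes along. Control oligos that do not match the RNA are used because DNA can also be captured by the beads or by an oligo directly, and because reads from sequence that is present in many copies, or in fewer copies in the assembly than in the animal, can pile up in any library.

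A replicate 2 peak was counted as near another peak when at most 10 kb separated them. Of the 832 members, 291 (35%) overlapped a WT NSC peak and 463 lay within 1 kb of one, overlaps included. The median gap was 600 bp and the widest was 9950 bp. The 3 members just inside the limit lay 9720 and 9842 bp from an NSC peak on chromosome 4 and 9950 bp from one on chromosome 8. The 3 peaks just outside lay 10013 bp away on chromosome 1, 10068 bp on chromosome 4 and 10092 bp on chromosome 14. Between 5 and 10 kb from an NSC peak, a range 5 kb wide, lay 120 replicate 2 peaks. Between 10 and 20 kb, a range 10 kb wide, lay 163. Seen from the control, 846 of the 2006 autosomal WT NSC peaks (42.2%) lay within 10 kb of a replicate 2 peak. These NSC peaks had a median fold over input of 27.6 (quartiles 25.1 and 31.4), against 27.9 (25.1 and 31.4) for all autosomal NSC peaks. The replicate 2 list gives positions only, and no fold could be given for the members themselves.

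The sequences that follow are mm9 (NCBIM37), 5′ to 3′, and the capitals mark 32 bases. In the first 5 these are the middle 32 bases of the peak, by which copies in the genome were counted. These 5 show kinds of DNA in which members lay. The first pair came from the *Snord116* array, from peaks that overlapped NSC peaks of 23.6-fold and 27.6-fold over input and lay between annotated *Snord116* copies. They share an unbroken run of 85 bases. The capitals of the first occur at 2 places and those of the second at 20, each time on chromosome 7.
Snord116 array, first region, chr7:66936728-66936877, plus strand: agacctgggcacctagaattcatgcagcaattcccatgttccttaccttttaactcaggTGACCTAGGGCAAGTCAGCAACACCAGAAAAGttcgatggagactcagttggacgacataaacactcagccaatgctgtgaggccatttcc
Snord116 array, second region, chr7:67047389-67047538, plus strand: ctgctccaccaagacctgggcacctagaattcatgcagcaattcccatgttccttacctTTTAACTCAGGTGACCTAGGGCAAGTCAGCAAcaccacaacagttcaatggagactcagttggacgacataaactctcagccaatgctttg
The next is from an intron of *Pisd-ps1* and overlapped an NSC peak of 29.6-fold.
Pisd-ps1 intron, chr11:3026208-3026357, plus strand: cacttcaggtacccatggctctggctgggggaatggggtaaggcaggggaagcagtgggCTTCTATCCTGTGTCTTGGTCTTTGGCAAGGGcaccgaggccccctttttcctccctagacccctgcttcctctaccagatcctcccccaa
The next 2 show the repeat classes. The first is an intergenic dinucleotide repeat near the start of chromosome 16, 3223 bp from an NSC peak of 31.4-fold.
Dinucleotide repeat, chr16:3116991-3117096, plus strand: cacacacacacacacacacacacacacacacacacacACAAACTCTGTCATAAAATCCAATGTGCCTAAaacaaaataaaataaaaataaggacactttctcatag
The second is from an exon of *Gm13242*, a protein-coding gene model on chromosome 4, and overlapped an NSC peak of 28.3-fold. The 1200 bases around it match themselves at a shift of 84 bases over 78.7% of positions, and 84 bases is the length that codes for 1 zinc finger of the C2H2 type in tandem finger genes.
Gm13242 exon, chr4:145292172-145292321, plus strand: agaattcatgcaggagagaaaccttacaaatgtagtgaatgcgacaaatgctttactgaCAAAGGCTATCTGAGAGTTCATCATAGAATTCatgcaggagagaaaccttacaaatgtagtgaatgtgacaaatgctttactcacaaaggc

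The last 3 are the *Pisd* gene and 2 of its copies, *Pisd-ps1* and *Pisd-ps2*, around 32 bases (capitals) found at these 3 places in the genome. They fall in an intron of *Pisd*, an exon of *Pisd-ps1* and an intron of *Pisd-ps2*. No member was centred on the stretches shown for *Pisd* and *Pisd-ps1*. Over the 150 bases *Pisd* is 97.3% identical to *Pisd-ps1* and 98% to *Pisd-ps2*, and *Pisd-ps1* and *Pisd-ps2* differ at 1 base (99.3%). A read that covers none of the differing bases cannot be placed at 1 of the 3 genes.
Pisd, chr5:33080892-33081041, plus strand: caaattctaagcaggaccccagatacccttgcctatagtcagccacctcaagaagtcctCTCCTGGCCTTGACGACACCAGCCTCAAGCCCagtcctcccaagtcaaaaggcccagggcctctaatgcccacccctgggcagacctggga
Pisd-ps1, chr11:3029909-3030058, minus strand: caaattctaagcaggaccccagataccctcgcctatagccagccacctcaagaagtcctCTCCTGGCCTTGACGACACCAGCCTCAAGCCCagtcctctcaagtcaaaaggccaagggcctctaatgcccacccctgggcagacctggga
Pisd-ps2, chr17:3077544-3077693, plus strand: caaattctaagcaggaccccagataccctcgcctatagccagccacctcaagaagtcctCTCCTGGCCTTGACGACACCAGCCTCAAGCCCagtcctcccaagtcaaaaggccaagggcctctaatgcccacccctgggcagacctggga

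The members were unevenly spread, with 39.2% of them in 10 blocks of the genome and the rest scattered. Chromosome 4 held 163 of them, 23.2% (20.1 to 26.4) of its 704 replicate 2 peaks, and chromosome 7 held 111, 13.5% (11.3 to 16.1) of 821. On the other 17 autosomes the share lay between 3.45% on chromosome 19 and 11.9% on chromosome 17. These shares describe the choice by the rule and were not tested. Of the members on chromosomes 4 and 7, 118 and 51 lay in a single block each. WT NSC had 433 of its 2006 autosomal peaks on chromosome 4 and 185 on chromosome 7. Joining replicate 2 peaks with gaps of at most 10 kb gave 8197 regions, of which 517 held a member. Of these regions, 398 held 1 member each, and 21 regions with 5 or more held 205 members. Joining members with gaps of at most 1 Mb gave 333 blocks, of which 226 held 1 member each, and the 10 largest held 326 members. For each region or block named below, peaks of the other lists were counted up to 10 kb beyond its ends. Because members in a block are neighbours and share sequence, intervals on shares of members cover counting error only and are too narrow. In the shares per merged region given below, a region had a feature when any of its members had it. Over all regions, any replicate 2 peak served. Member regions held more peaks each (832 members in 517 regions, against 9221 peaks in 8197), which can raise their shares more.

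**Figure D1:**
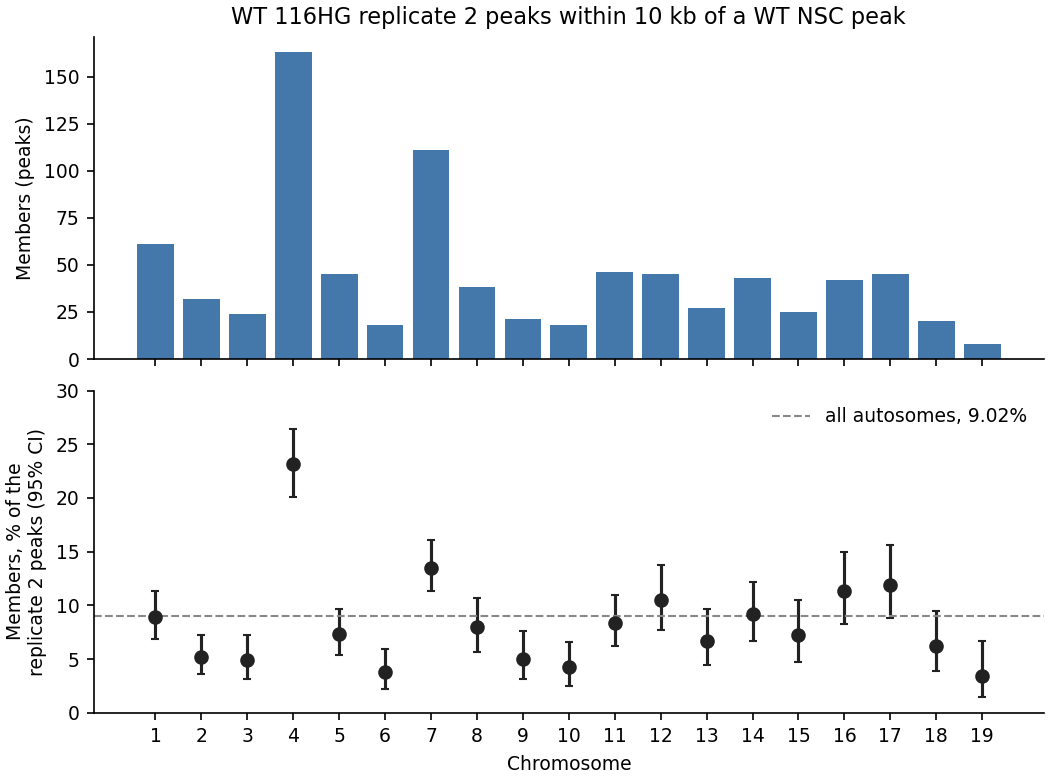
Members on each autosome (x axis), as a number of peaks (upper panel) and as a percentage of the replicate 2 peaks of that chromosome with its exact 95% interval (lower panel, dashed line: 9.02% over all autosomes). Chromosome 4 (163 members, 23.2%) and chromosome 7 (111 members, 13.5%) stand highest, with 118 and 51 of these members in a single block each.

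The largest block lay on chromosome 4 between 145209261 and 147154491 and held 118 members, 14.2% of all, in 44 regions. This stretch contains 75 annotated genes, 42 of them pseudogenes and 20 protein-coding, among which are the zinc finger genes *Zfp534*, *Zfp600* and *Rex2*. WT NSC had 321 peaks there or within 10 kb, up to 50.3-fold over input (median 25.1). Of the 118 members, 15 overlapped an NSC peak directly. The middle 32 bases were repeated elsewhere for 110 members and had another copy within 1 Mb for 102, with a median of 5 copies. The members here had a median width of 142 bp (range 57 to 251), against 128 bp over all members and 93 bp over all replicate 2 peaks. Counted in the same way, replicate 1 had 32 peaks and the *Snord116del* libraries had 1 (*116HG* oligos) and 5 (NSC oligos). The densest member regions within the block each held 9 members. The first lay between 145359929 and 145400389, with 23 NSC peaks up to 44-fold, and the second between 146999997 and 147031693, over *2610305D13Rik*, with 9 NSC peaks up to 37.7-fold.

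The second largest block was the *Snord116* array itself, from 66927080 to 67050430 on chromosome 7, where 51 members lay in regions of 33 and 18. They were part of the 288 replicate 2 peaks between *Ube3a* and *Snrpn* (66484122 to 67285105). The 27 annotated *Snord116* copies span 66928831 to 67068008, and 47 of the 61 replicate 2 peaks in that span were members. None of the 218 replicate 2 peaks over the neighbouring *Snord115* copies was a member. What made the *Snord116* peaks members was a set of 8 WT NSC peaks between 66936639 and 67050104, with folds over input from 20.3 to 27.6 (median 22.1), below the median of 27.9 over all autosomal NSC peaks. Of the 51 members, 4 overlapped one of these NSC peaks, and the median gap was 1291 bp. The member at 66936708 to 66936898 overlapped an NSC peak of 23.6-fold, as did that at 66940814 to 66941280. The member at 67047334 to 67047594 overlapped the strongest NSC peak (27.6-fold) and that at 67049817 to 67050430 a peak of 20.7-fold. Annotated *Snord116* copies were overlapped by 7 members. The *Snord116* members were wider than the others, with a median of 243 bp (range 70 to 653) against 128 bp over all members. Their middle 32 bases had a median of 9 copies (at most 26), 43 of the 51 were repeated, and the other copies of these 43 included one within 1 Mb. All 51 lay within 10 kb of a replicate 1 peak, and 8 overlapped one. Within 10 kb of this block the *Snord116del* *116HG* and *Snord116del* NSC lists had 0 peaks. These mice lack the *Snord116* copies on the paternal chromosome, and their peaks were called against WT input. Less DNA to capture and less capture therefore cannot be told apart here. All 51 also lay within 50 kb of a stretch of unknown bases in the assembly, which falls between the 2 regions.

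**Figure D2:**
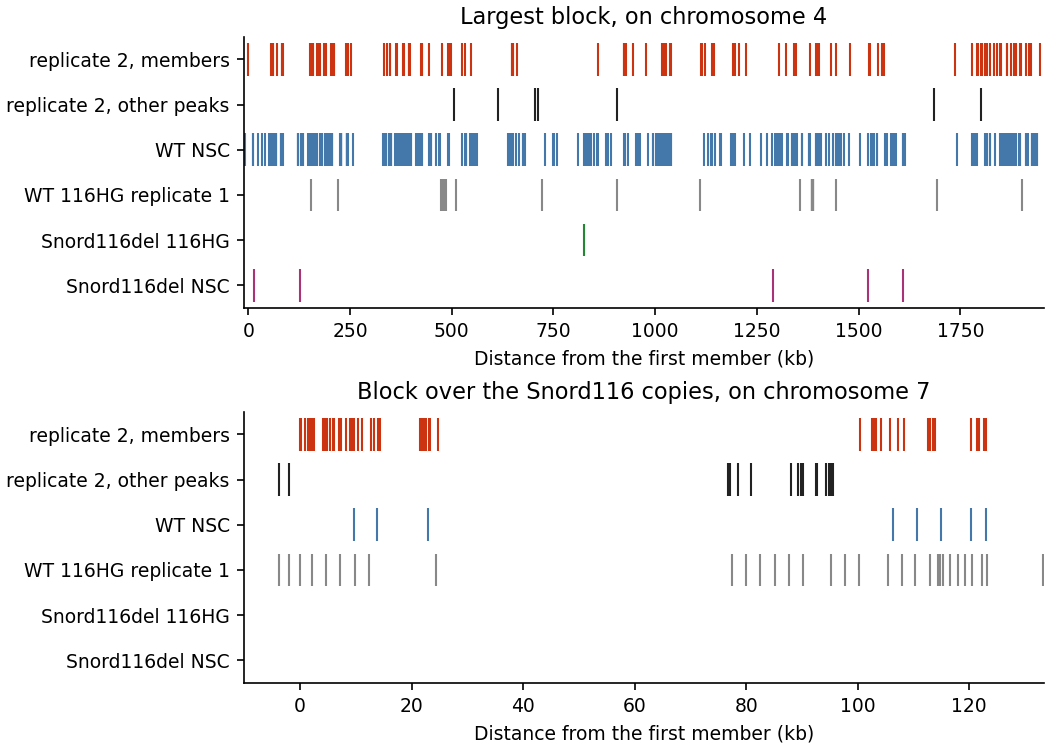
Peaks of each list in the largest block (upper panel, chromosome 4, 118 members) and in the block over the *Snord116* copies (lower panel, chromosome 7, 51 members). Each line is 1 peak at its middle, the x axis is the distance from the first member in kb, and the rows are the members, the other replicate 2 peaks and the other 4 lists. WT NSC peaks fill the upper panel (321 peaks) and number 8 in the lower. There the *Snord116del* lists have none, in mice whose paternal *Snord116* copies are deleted.

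*Pisd* encodes phosphatidylserine decarboxylase, the mitochondrial enzyme that makes phosphatidylethanolamine. It lies on chromosome 5 (33078949 to 33128295, minus strand), and its copies lie near the start of chromosome 11 (*Pisd-ps1*, 3025907 to 3031007) and of chromosome 17 (*Pisd-ps2*, 3076578 to 3084183). All 3 overlapped dense member regions, which held 10 members at *Pisd* (33069417 to 33083496), 16 at *Pisd-ps1* (3020344 to 3040000) and 12 at *Pisd-ps2* (3076348 to 3084148). Of these, 10, 11 and 11 had their middle inside any annotated gene, and 5, 9 and 11 inside the named gene. Peaks of the other lists were counted within 10 kb of each region. Of the 38 members, 9 had middle 32 bases found at all 3 places. At *Pisd*, WT NSC had 4 peaks up to 37.7-fold, replicate 1 had 7 up to 110-fold, *Snord116del* *116HG* had 5 up to 31.9-fold and *Snord116del* NSC had 5 up to 38.7-fold. At *Pisd-ps1*, WT NSC had 7 peaks up to 44-fold, replicate 1 had 8 up to 61.8-fold, *Snord116del* NSC had 1 of 20.1-fold and *Snord116del* *116HG* had 0. At *Pisd-ps2*, WT NSC had 5 peaks up to 44-fold, replicate 1 had 6 up to 103-fold, *Snord116del* *116HG* had 2 up to 27.2-fold and *Snord116del* NSC had 3 up to 31.5-fold. The regions at *Pisd* and *Pisd-ps2* thus had peaks of all 5 lists in them or within 10 kb, whichever oligos and genotype were used.

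Other dense places lay at the assembled starts of chromosomes, next to the centromeres, where each assembled sequence opens at base 3000001. On chromosome 16, 25 members lay between 3112070 and 3544354, with 18 NSC peaks up to 44-fold, 0 replicate 1 peaks and 2 *Snord116del* NSC peaks. The densest part, from 3112070 to 3128112, held 11 members and no annotated gene. On chromosome 17, the stretch from 3020140 to 3036845 held 9 members with no gene, and 8 of these matched themselves best at a shift of 21 bases. It had 4 NSC peaks up to 50.3-fold and 2, 1 and 1 peaks of replicate 1, *Snord116del* *116HG* and *Snord116del* NSC. On chromosome 18 (3004167 to 3011210) lay 10 members with 1 NSC peak of 20.6-fold and no peak of another list. Counting members within 1 Mb of the first sequenced base gave 95 (11.4%, 9.34 to 13.8) on 10 chromosomes, against 222 of all 9221 replicate 2 peaks (2.41%). Most were in a few clusters. Chromosomes 11, 16 and 17 held 24, 25 and 22 of them, including the 16 and 12 members of the *Pisd-ps1* and *Pisd-ps2* regions. Within 1 Mb of the last sequenced base lay 9 members (1.08%), 8 of them on chromosome 2, against 0.933% of all replicate 2 peaks. Both ends together took 12.5% (10.3 to 14.9) of members against 3.34% of all. Counted per merged region, the shares were 3.87% (2.38 to 5.91) of the 517 member regions and 2.33% (2.01 to 2.68) of all 8197.

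Other large blocks lay over annotated genes. On chromosome 1, 23 members lay between 84133931 and 85340357, of which 17 lay inside or within 2 kb of *C130026I21Rik*, and 6 of these 17 inside or within 2 kb of *A530032D15Rik*, which is nested in it. WT NSC had 44 peaks in or within 10 kb of this stretch, which also holds genes such as *Dner* and *Trip12*. A further 9 members lay between 87381368 and 87761183, a stretch that holds *Sp100*, *Sp110* and *Sp140*, which encode nuclear body proteins. On chromosome 14, 20 members lay between 41867842 and 45300722, where 73 of 158 genes are pseudogenes and 9 have symbols of the *Ear* (eosinophil-associated ribonuclease) family. On chromosome 7, 18 members lay between 20491875 and 24113365, where 61 of 112 genes are *Vmn1r* pheromone receptor genes of the vomeronasal organ. On chromosome 12, 14 members lay between 23795886 and 24902821, where 6 of 9 genes are pseudogenes, and 11 between 18030579 and 21992370, where 4 of 28 are. On chromosome 8, 4 members lay in a block with 29 annotated 5S ribosomal RNA genes, and all 4 were within 10 kb of peaks of both *Snord116del* lists. Over the genome, 6 members (0.721%) lay within 10 kb of an annotated 5S gene, against 0.184% of all replicate 2 peaks.

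Repeated sequence was more common among the members than in their list. A peak was called repeated when its middle 32 bases occurred more than once in the genome on either strand. This held for 662 members (79.6%, 76.7 to 82.3) against 69% of all autosomal replicate 2 peaks and 81.5% of WT NSC peaks. Counted per merged region, where 1 repeated peak was enough, it held for 83.9% (80.5 to 87) of member regions against 69.1% of all. The kind of repetition also differed. Sequence present at 2 to 10 places made up 35.1% (31.9 to 38.4) of members and 17.7% of all replicate 2 peaks, whereas sequence present at over 100 places, the range of interspersed repeats, made up 22.6% (19.8 to 25.6) of members and 33.6% of all. Another copy within 1 Mb was found for 346 members (41.6%, 38.2 to 45), against 20.9% of all and 47.9% of WT NSC peaks. An assembly gap within 50 kb was found for 174 members (20.9%, 18.2 to 23.8), against 3.28% of all and 9.27% of WT NSC peaks. Per merged region the shares were 6.19% (4.27 to 8.63) of member regions and 1.65% of all. Short tandem repeats were taken as a run of at least 40 bases matching itself at a shift of 1 to 6 bases. They were found at 81 members (9.74%, 7.81 to 12), fewer than the 16.9% of all replicate 2 peaks. Among WT NSC peaks the share was 6.43%. Per merged region short tandem repeats were found at 14.7% (11.8 to 18.1) beside 18.8%. Long tandem repeats, in which 75% of 1200 bases match at a shift of 7 to 400 bases, were found at 2 members (0.24%) against 0.314% of all.

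**Figure D3:**
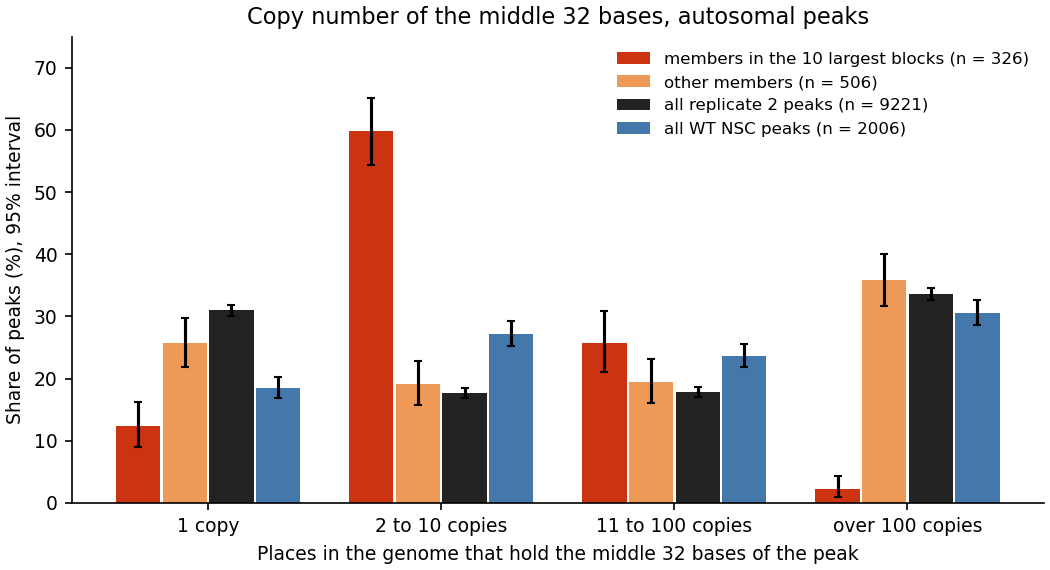
Share of autosomal peaks (y axis, percent, with exact 95% intervals) whose middle 32 bases occur at 1, 2 to 10, 11 to 100 or over 100 places in the genome (x axis), for members in the 10 largest blocks (n = 326), other members (n = 506), all replicate 2 peaks (n = 9221) and all WT NSC peaks (n = 2006). In the 10 largest blocks 59.8% of members have 2 to 10 copies, and over 100 copies are seen in 35.8% of the other members and 33.6% of all replicate 2 peaks.

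The members were of unlike kinds. In the 10 largest blocks 59.8% (54.3 to 65.2) had 2 to 10 copies and 2.15% (0.868 to 4.37) had over 100. Outside these blocks the shares were 19.2% (15.8 to 22.9) and 35.8% (31.6 to 40.1), close to the 17.7% and 33.6% of all replicate 2 peaks. There the share with another copy within 1 Mb was 22.7% (19.1 to 26.6), beside 20.9% of all, while inside the blocks it was 70.9% (65.6 to 75.7). The share with an assembly gap within 50 kb was 7.51% (5.37 to 10.2) outside the blocks, beside 3.28% of all. These 38 members were themselves clustered. They included all 10 of the chromosome 18 block, all 10 of the *Pisd* block and all 7 of a block on chromosome 4 (3008035 to 3017978). Members that overlapped an NSC peak differed from those that lay beside one. Of the 291 overlapping members, 18.2% (14 to 23.1) held a short tandem repeat and 19.6% (15.2 to 24.6) another copy within 1 Mb. Of the 541 others, 5.18% (3.47 to 7.39) and 53.4% (49.1 to 57.7) did. The median width was 89 bp for the overlapping members and 138 bp for the others. Although these 541 overlapped no NSC peak, the middle 32 bases of 123 (22.7%, 19.3 to 26.5) also occurred inside an NSC peak elsewhere, as did those of 29.5% of the replicate 2 peaks that were not members. A unique middle was found for 170 members (20.4%).

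The deletion libraries, which the choice of members did not use, had peaks near the members more often than near replicate 2 peaks at large. Of the 832 members, 57 (6.85%, 5.23 to 8.79) lay within 10 kb of a *Snord116del* *116HG* peak, against 2.17% of all replicate 2 peaks, and 93 (11.2%, 9.12 to 13.5) within 10 kb of a *Snord116del* NSC peak, against 4.58%. Direct overlap was found for 17 members (2.04% against 0.455%) and for 29 members (3.49% against 0.727%). Of the members near a *Snord116del* *116HG* peak, 52 were also near a *Snord116del* NSC peak. The *Pisd* regions alone gave 22 of the 57 (38.6%) and 37 of the 93 (39.8%). Without these 3 regions the shares were 4.41% (3.09 to 6.08) and 7.05% (5.37 to 9.06), against 1.94% and 4.19% of all replicate 2 peaks without them. Per merged region they were 4.84% (3.15 to 7.06) and 7.54% (5.42 to 10.2), against 1.94% and 4.23% of all regions. The *Snord116del* *116HG* peaks near members had a median of 24.1-fold over input (n = 52), against 22.4-fold over that list.

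Peaks of the other WT *116HG* library were not more frequent near the members. Replicate 1 had 74621 autosomal peaks, and 309 members (37.1%, 33.8 to 40.5) lay within 10 kb of one, against 42.1% of all replicate 2 peaks. Among the members within 2 kb of an NSC peak the share was 41.6% (37.5 to 45.8), and outside the 10 largest blocks it was 39.9% (35.6 to 44.3). The 2 WT *116HG* lists were unlike. Of replicate 1 peaks, 72.2% had their middle in an exon and 17.6% were repeated, against 2.38% and 69% of replicate 2 peaks. The part of this in the shares was not tested. Of all members, 105 (12.6%, 10.4 to 15.1) overlapped one, against 18.8%. Members that overlapped an NSC peak were near a replicate 1 peak in 47.4% (41.6 to 53.3) of cases, and those that did not in 31.6% (27.7 to 35.7). The replicate 1 peaks near members had a median of 62.5-fold over input (n = 465) against 55.3-fold over all. For 490 members (58.9%) no peak of the other 3 lists lay within 10 kb, beside 55.6% of all replicate 2 peaks. At the opposite end, 35 members lay near peaks of all 3, out of 78 such replicate 2 peaks. Both counts include the *Pisd* regions, where 22 members lay near a *Snord116del* *116HG* peak. Peaks of all 5 lists came together at 14 member regions, which held 44 members. Besides *Pisd* (10 members), *Pisd-ps2* (12) and the stretch near *Pisd-ps2* on chromosome 17 (9), these were 11 small regions of 1 or 2 members. Among them were the 5S cluster on chromosome 8 and regions inside or within 2 kb of *Proca1* on chromosome 11 (78009036 to 78011614), *Lrch3* on chromosome 16 (here the member lies on the annotated 5S gene *n-R5s33*), *Rsph3a* on chromosome 17, *Cd163l1* on chromosome 7 and *Itga9*, an integrin subunit gene, on chromosome 9. In 5 of the 14 the middle 32 bases of the members had a median of 1 copy in the genome. The libraries differ in depth, and the part of depth in these shares was not tested.

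**Figure D4:**
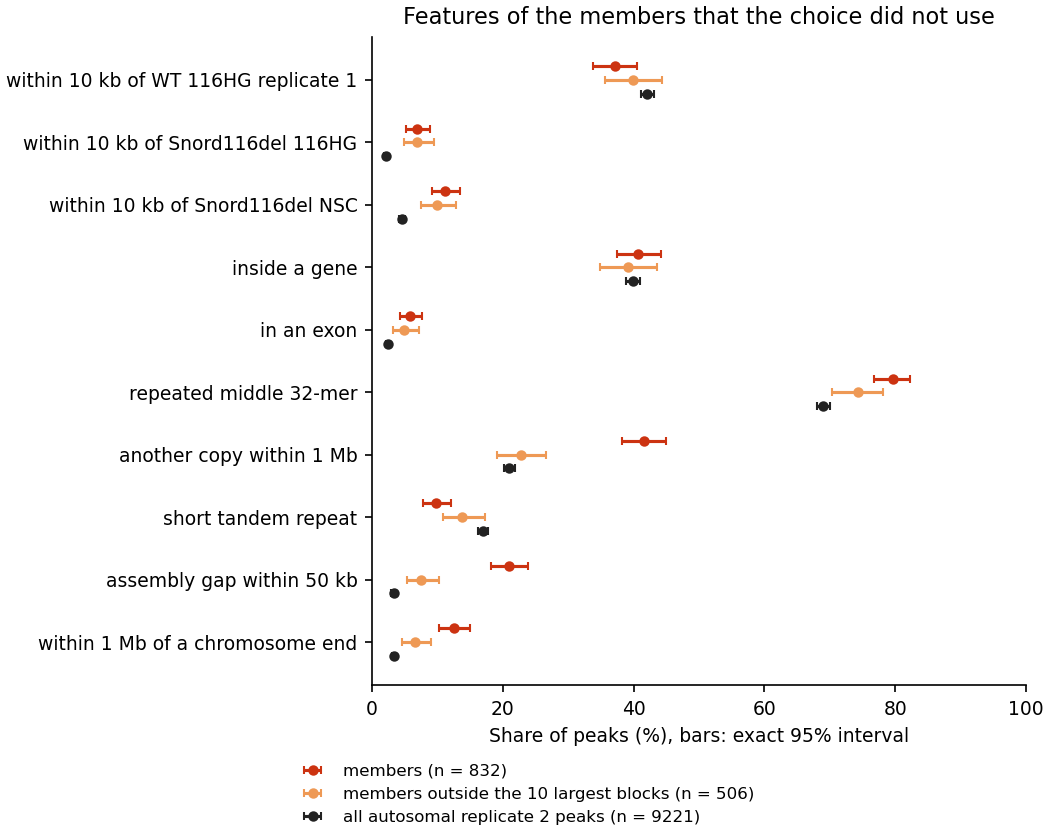
Share of peaks (x axis, percent, with exact 95% intervals) that have each feature (y axis), for all members (n = 832), members outside the 10 largest blocks (n = 506) and all autosomal replicate 2 peaks (n = 9221). Members lie above all replicate 2 peaks for nearness to both *Snord116del* lists, exons, repeated sequence, assembly gaps and chromosome ends, below them for replicate 1 and short tandem repeats, and level with them inside genes.

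By position, members lay inside genes as often as other peaks but more often in exons. The middle base was inside an annotated gene for 339 members (40.7%, 37.4 to 44.2) against 39.9% of all replicate 2 peaks. It was in an exon for 48 members (5.77%, 4.28 to 7.58) against 2.38% of all. The exons belonged to 34 gene symbols, 19 of them protein-coding, and the middle 32 bases were repeated in 30 of the 48. *Pisd*, *Pisd-ps1* and *Pisd-ps2* accounted for 3, 4 and 3 of these members and *Snord116* for 4. *Eef2*, which encodes the elongation factor that moves the ribosome along mRNA, had 3 members in exons with a median of 1 copy, on chromosome 10. *Cdc27*, a subunit of the anaphase-promoting complex, had 2, also with 1 copy. *Gm13242*, in the chromosome 4 block, had 3, and 4 different 5S ribosomal RNA genes had 1 each. *Ybx1*, which encodes a Y-box protein that binds RNA and DNA, had 1. The exon share outside the 10 largest blocks was 4.94% (3.22 to 7.21).

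The RNA of genes at the members was then compared between *Snord116del* and WT cortex. A member lay inside or within 2 kb of 318 gene models, 209 of them protein-coding and 39 pseudogenes. Of their 302 symbols, 189 were in the RNA-seq table and 104 averaged at least 1 FPKM over the 4 groups. With 1 value per group there was no test, and a gene was called changed when its FPKM + 1 in 1 genotype was 1.5 times that in the other or more, provided that the larger FPKM reached 1. The deletion could not be checked in this table, since *Snord116* is listed at 0 in all 4 groups. Fewer cells of a type and less RNA per cell cannot be told apart in cortex tissue.

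At Zt +6, 60 of the 104 genes changed (57.7%, 47.6 to 67.3), beside 56.9% of all 10297 genes of that average level. Of these, 58 were higher in *Snord116del* (55.8%, 45.7 to 65.5), beside 49.3% of all, and 2 were lower, *A530032D15Rik* and *Magoh*, an exon junction complex gene. *Magoh* stood at 27 FPKM in WT and 10.6 in *Snord116del*. The median log2 ratio of FPKM + 1 was 0.83 for the 104 genes and 0.57 for all genes tested. When the groups were brought to a common median, 45 of the 104 changed (43.3%), beside 39.5% of all genes tested, and 64.4% of the 45 were higher, against 96.7% of the 60 as deposited. Markers of most cell types moved in the same direction at this time. By the same rule 14 of 20 markers were higher in *Snord116del* and none lower, with summed levels of 69.6 and 213 FPKM for 3 astrocyte markers in WT and *Snord116del* and of 12.9 and 26.8 FPKM for 3 striatal markers. Neuronal markers were 640 and 878 FPKM in sum, and the 2 choroid plexus markers, which came to 201 and 183 FPKM, did not change. The part of these markers in the values of single genes was not tested.

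At Zt +16, 9 of the 104 genes changed (8.65%, 4.03 to 15.8), beside 19.2% of all, and all 9 were higher in *Snord116del*, beside 19% of all. The median log2 ratio was 0.25, against 0.35 for all genes. These 9 were *Pisd*, *Eef2*, *Blmh*, *Swi5*, *Ccdc101*, *Dapk3*, *Wdr8*, *Rcn3* and *1700101I11Rik*, of which all but *Pisd*, *Eef2* and *Blmh* were named after their values were seen. At a common median, 1 gene of the 104 (0.962%) was changed, beside 1.74% of all genes. It was *Dapk3*, a protein kinase gene next to *Eef2* (3.91 FPKM in WT and 9.23 in *Snord116del*). At this time 7 of the 20 markers were higher and none lower.

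Among the 3 *Pisd* copies, *Pisd* itself had 9.16 FPKM in WT cortex and 10.5 after deletion at Zt +6, and 8.99 and 14 at Zt +16 (values are in this order for the genes that follow). *Pisd-ps1* had 10.3 and 20.2 FPKM at Zt +6 and 7.09 and 10.3 at Zt +16. *Pisd-ps2* was low, with 1.06 and 3.6 FPKM at Zt +6 and 1.05 and 0.927 at Zt +16. By the fold rule *Pisd-ps1* and *Pisd-ps2* were higher in *Snord116del* at Zt +6 only and *Pisd* at Zt +16 only, and the difference between the times was not tested. Reads of these near-identical copies may have been split between them, so their single values are uncertain. *C330019G07Rik*, which overlaps *Pisd* on the same strand, had 1.27 and 4.23 FPKM at Zt +6, and reads of the 2 genes cannot be told apart where their exons overlap.

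*C130026I21Rik*, with 17 members, was low and nearly level, at 1.38 and 1.23 FPKM at Zt +6 and 1.05 and 0.993 at Zt +16. *A530032D15Rik*, with 6 members, had 1.65 and 0.709 FPKM at Zt +6, and 1.25 and 0.926 at Zt +16. *Sfi1*, a centrosome gene next to *Pisd-ps1*, had 2.92 and 4.35 FPKM at Zt +6 and 2.84 and 2.9 at Zt +16. *1700029I01Rik* in the chromosome 4 block had 0.797 and 2.26 FPKM at Zt +6 and 0.652 and 0.805 at Zt +16. Of these 4 genes in clusters, *1700029I01Rik* passed the fold rule upward and *A530032D15Rik* downward, both at Zt +6.

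Of the 20 genes named by rule, *Eef2* had the highest FPKM, at 71.5 and 148 FPKM at Zt +6 and 46.5 and 72.4 at Zt +16, and passed the fold rule at both times. *Ybx1* had 7.23 and 17.2 FPKM at Zt +6 and 2.82 and 3.45 at Zt +16. *Scamp1*, which encodes a membrane protein of secretory vesicles, had 11.2 and 27.4 FPKM at Zt +6 and 13.3 and 18.8 at Zt +16. *Ptprd*, a receptor tyrosine phosphatase of synapses, had the widest ratio of the named genes, with 8.08 and 35.7 FPKM at Zt +6 (log2 ratio of FPKM + 1 of 2.02) and 3.33 and 4.87 at Zt +16. Its 2 members lay in introns and had a median of 738 copies. *Trak2*, an adaptor for the transport of mitochondria along axons, had 3.92 and 12.1 FPKM at Zt +6 and 1.76 and 2.71 at Zt +16, also with 2 intronic members of many copies (median 552). *Cdc27* had 2.13 and 5.62 FPKM at Zt +6 and 2.09 and 2.91 at Zt +16. *Blmh*, the bleomycin hydrolase gene, had 4.77 and 5.05 FPKM at Zt +6 and 6.73 and 10.8 at Zt +16. *Cpt2*, which encodes a mitochondrial enzyme of fatty acid oxidation, had 1.79 and 2.03 FPKM at Zt +6 and 2.13 and 3.33 at Zt +16 and passed at neither. The other 4 named genes, *6820431F20Rik*, *2610005L07Rik*, *Lrrc8d* (a subunit of volume-regulated anion channels) and *Gm10406*, ranged from 0.901 to 11.8 FPKM, and the first 3 passed upward at Zt +6.

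**Figure D5:**
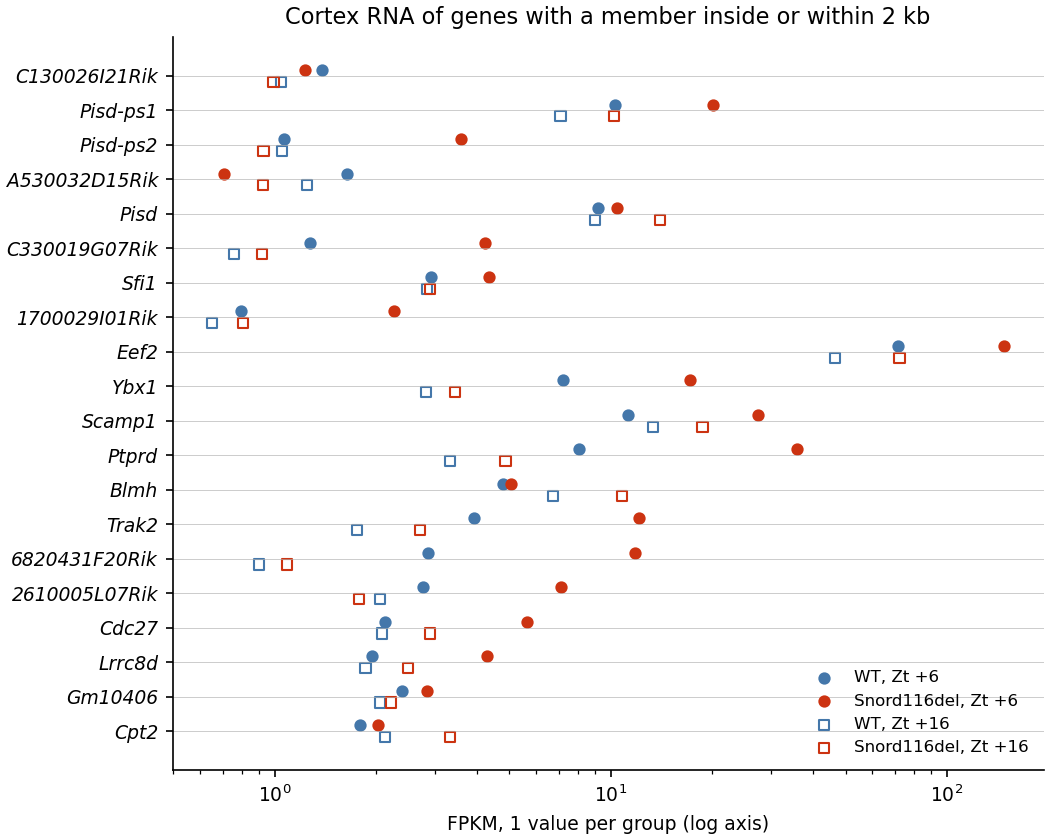
Cortex RNA (x axis, FPKM, log axis, 1 value per group and so no error) of the 20 named genes with a member inside or within 2 kb (y axis, from most to fewest members), at Zt +6 (filled circles) and Zt +16 (open squares) in WT (blue) and *Snord116del* (red). At Zt +6 *Snord116del* lies right of WT for 18 of the 20 genes, and *Ptprd* has the widest distance (8.08 and 35.7 FPKM).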

How the data were processed

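ChIRP-seq peak lists of 5 libraries and an RNA-seq table were used. The authors aligned ChIRP-seq reads to mm9 with Bowtie2 and called peaks against WT input with MACS (the submitters' notes name MACS 1.4.2). For each peak the authors deposited a ratio, its fold over input, which was used only to describe peaks. The replicate 2 list gives positions only. The authors deposited 1 Cuffdiff FPKM value per gene and group, so the planned limma fit was replaced by the stated fold rule. The deposited log2 fold changes, test statistics and q-values are the authors' own comparison and were not used. Reads per library are stated in the study's methods but are not in these files and were not used here.

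Peaks were placed on NCBIM37 (mm9) with GENCODE annotation, by their middle base, and copies of the middle 32 bases were counted on both strands. Nearby copies were sought for sequences with at most 5000 copies. Intervals are exact (Clopper-Pearson) 95% intervals. The 10 regions with the most members (ties by WT NSC peaks), the 20 genes with the most members (ties by mean FPKM), the *Snord116* window and the cell type markers were named by rule. Members and lists were chosen with earlier results of these data known, and blocks, assembly gaps, chromosome ends, nearby copies, 5S genes and the *Pisd* comparison after the data were seen. Of 23235 genes in the RNA-seq table, 21853 were matched by symbol. Steps were tested on simulated data. Python 3.11.15, numpy 2.4.6, pandas 2.3.3 and scipy 1.17.1 were used.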

Additional observations from a re-analysis of the deposited data

How the results depend on the processing

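No paired analysis was possible because each peak list is 1 library and the RNA-seq table holds 1 value per group. Of the 67 alternative values, 28 moved beyond their interval or by over 1.5 times. Whether the direction of a comparison changed was not scored. Of 832 members, 291 remained with direct overlap, 543 with NSC peaks of at least the median fold, 517 when merged peaks were counted once, and 1358 were found at 50 kb. The rule applied to replicate 1 in place of replicate 2 took 843 other peaks, 1.13% of its 74621 against 9.02%, and leaving out replicate 1 cannot change the 832, since the rule does not use it. Members within 2 kb were near replicate 1 in 41.6% of cases and had another copy within 1 Mb in 36.2%. Per merged region the shares were 4.84% near *Snord116del* *116HG*, 7.54% near *Snord116del* NSC, 83.9% repeated, 14.7% short tandem, 37.3% with another copy within 1 Mb, 6.19% near an assembly gap and 3.87% near a chromosome end, beside 1.94%, 4.23%, 69.1%, 18.8%, 18.1%, 1.65% and 2.33% of all replicate 2 regions. Without the largest region 17.6% were near an assembly gap. By any base of the peak 7.81% touched an exon, and by 24 bases 88.1% were repeated. Alternatives added after seeing the data gave, without the 10 largest blocks, 74.3% repeated, 13.8% short tandem, 0% long tandem, 22.7% with another copy within 1 Mb, 7.51% near an assembly gap and 6.52% near a chromosome end, and, without the *Pisd* regions, 4.41% and 7.05% near the *Snord116del* *116HG* and NSC lists. At Zt +16, in place of 9 of 104 genes, 16 changed with a pseudocount of 0.1 (15.4%, beside 30.5% of all genes), 1 after scaling (0.962% beside 1.74%), 1 at 2-fold (0.962% beside 1.39%) and 18 of 156 genes within 10 kb (11.5% beside 19.2%). The causes of these shifts were not tested. Single libraries and group values set the limit: the spread between mice cannot be seen, and shares carry counting error only.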

Other observations

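The X chromosome lay outside the rule but showed the same closeness more strongly. Of its 1439 replicate 2 peaks, 729 (50.7%, exact 95% interval 48 to 53.3) lay within 10 kb of a WT NSC peak, against 9.02% on the autosomes, and WT NSC had 1369 peaks there and 2006 on all autosomes together. The *Snord116del* lists had 85 (*116HG*) and 188 (NSC) peaks on the X chromosome.

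Of the smaller blocks, that on chromosome 4 between 59610612 and 61243353 held 5 members, with 16 WT NSC peaks in it or within 10 kb. Of its 41 genes, 26 have *Mup* (major urinary protein) symbols and 20 are pseudogenes. On chromosome 7 between 15446808 and 16633527 lay 8 members, with 24 NSC peaks there or within 10 kb. In this block 5 of 18 genes are *Obox* homeobox genes. These blocks were picked after their genes were seen.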
